A study of Mus musculus with 6 samples.

Results

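Genes of MHC class I antigen presentation and of the interferon response were followed in retinal ganglion cells, which send visual signals to the brain through the optic nerve. The set was chosen by name: 9 genes were listed, and the 8 found in the raw count table of 22413 genes are described here, namely B2m, H2-K1, H2-D1, Tap1, Tapbp, Stat2, Irf1 and Ifitm3. Bst2 was not analysed here. The cells came from adult mice in 2 genotypes with 3 libraries each. The Tgfbr1flx/flx;Vglut2Cre/+ libraries (called knockout) came from mice with both copies of the type I TGF-beta receptor gene floxed and 1 Vglut2-Cre allele, which drives Cre in cells that use the vesicular glutamate transporter gene Slc17a6. The Tgfbr1flx/flx;Vglut2+/+ libraries (called control) carried the same floxed alleles without Cre. The labels do not say whether a library is 1 animal or a pool, or how the ganglion cells were isolated, so the spread behind each p-value is that between these libraries and may be technical.

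MHC class I molecules carry peptides from inside the cell to its surface. A class I heavy chain, such as the product of H2-K1 or H2-D1, pairs with beta-2-microglobulin, the product of B2m. TAP transporters bring peptides into the endoplasmic reticulum, where tapasin (Tapbp) helps to load them. Interferons raise the transcription of these genes through transcription factors that include STAT2 and IRF9 (type I interferon) and IRF1 (interferon gamma), and neurons are known for low class I levels at rest.

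The promoters of the 4 members with the most counts over the 6 libraries are shown, since these genes carry most of what follows. The sequences come from RefSeq's annotation of GRCm38.p6 (mm10), run from 250 bases before to 50 bases after the annotated start, and are written 5′ to 3′ on the gene's strand. They lie at chr2:122147437-122147736 (B2m, plus strand), chr17:34000298-34000597 (H2-K1, minus strand), chr17:35262844-35263143 (H2-D1, plus strand) and chr7:141010695-141010994 (Ifitm3, minus strand). In B2m and Ifitm3, capitals mark matches to 2 motifs searched on both strands, GAAA, any 2 bases and GAAA (interferon-stimulated response element, ISRE) and TTCNNNGAA (gamma-activated site, GAS). In H2-K1 and H2-D1, capitals mark the longest run of bases that both promoters hold.
B2m: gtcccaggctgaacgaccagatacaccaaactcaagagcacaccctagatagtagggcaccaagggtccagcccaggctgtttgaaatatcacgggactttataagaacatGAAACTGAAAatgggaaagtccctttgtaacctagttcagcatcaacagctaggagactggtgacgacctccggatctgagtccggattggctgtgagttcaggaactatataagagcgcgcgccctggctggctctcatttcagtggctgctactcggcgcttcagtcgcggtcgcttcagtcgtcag
Ifitm3: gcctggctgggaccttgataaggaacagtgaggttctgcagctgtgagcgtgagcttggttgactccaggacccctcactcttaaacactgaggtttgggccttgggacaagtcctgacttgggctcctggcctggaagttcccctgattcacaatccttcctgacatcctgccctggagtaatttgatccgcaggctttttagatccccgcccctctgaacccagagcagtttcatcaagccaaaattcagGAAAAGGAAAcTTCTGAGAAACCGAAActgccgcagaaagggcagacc
H2-K1: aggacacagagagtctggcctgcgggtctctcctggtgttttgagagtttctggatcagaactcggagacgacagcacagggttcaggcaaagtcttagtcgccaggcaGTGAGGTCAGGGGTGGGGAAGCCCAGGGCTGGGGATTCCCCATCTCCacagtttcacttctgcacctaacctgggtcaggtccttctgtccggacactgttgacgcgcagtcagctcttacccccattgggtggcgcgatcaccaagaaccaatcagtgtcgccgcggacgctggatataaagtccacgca
H2-D1: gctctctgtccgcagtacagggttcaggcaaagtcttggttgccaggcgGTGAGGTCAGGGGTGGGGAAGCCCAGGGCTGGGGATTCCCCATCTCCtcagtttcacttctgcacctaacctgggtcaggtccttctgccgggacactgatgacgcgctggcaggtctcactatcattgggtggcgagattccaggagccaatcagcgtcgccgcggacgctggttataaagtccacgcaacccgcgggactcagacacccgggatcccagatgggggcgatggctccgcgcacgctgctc

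The shared run of H2-K1 and H2-D1 is 47 bases long, while the longest run in the other 27 pairs of member promoters had 7 to 13 bases. B2m holds 1 ISRE match, from 139 to 130 bases before the start, and Ifitm3 holds 2, from base 3 to 12 and from base 20 to 29 after it, with a GAS match between them whose last bases overlap the second ISRE match. Stat2 also holds 1 ISRE match and Irf1, in the first of its 2 listed promoters, 1 GAS match. Over all 32851 promoters of that length in the table, 3.44% hold the ISRE letters and 8.3% hold the GAS letters. The promoters of H2-K1, H2-D1, Tap1 and Tapbp hold neither string in this window, which says nothing of the factors that bind there.

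Library totals ranged from 8098891 to 21126291 counts in the knockout and from 7486359 to 16372260 in the control, and genes with at least 10 counts numbered 5790 to 7209 in the knockout and 4258 to 4863 in the control. Tgfbr1 itself had 46, 0 and 793 counts in knockouts 1, 2 and 3, against 1, 0 and 1538 in controls 1, 2 and 3, and these counts do not separate the floxed part, so they check nothing about the deletion. Of 12 ganglion cell markers, 7 to 10 were detected in the knockouts and 5 to 9 in the controls. The most abundant, the neuronal protein genes Sncg and Nefl, had 3426 and 85 counts in control 3 and at least 4008 and 6848 elsewhere. Slc17a6, the gene for Vglut2, had 0 counts in control 3 and 2101 to 13948 elsewhere, and Thy1, a surface protein of ganglion cells, had 1 count in control 3 and 556 to 6862 elsewhere. Control 3 stood apart: its ganglion cell markers summed to 610.6 CPM (counts per 1000000 of the library's total), against 2713 to 4787 CPM in the other 5 libraries, and its 14 endothelial markers summed to 8131 CPM, against 36.07 to 796.2 CPM elsewhere. Several of its markers thus went against the ganglion cell label, while Rbpms and Pou4f1, also of ganglion cells, had 4203 and 1394 counts in it. The fold changes of the tested members are therefore also given without control 3.

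No member passed the test of a difference between genotypes. The low-count filter passed 6 of the 8 members, and edgeR's quasi-likelihood test with Benjamini-Hochberg adjustment over 5727 genes called 0 of the 6 (0% of all genes tested were called). With no adjustment, 0 of the 6 had p under 0.05, against 4.91% of all genes tested, and limma voom, which called 1.54% of all genes, also called 0 of 6. DESeq2, which called 15% of the genes with an adjusted p, called 0 of 6 and gave no adjusted p for Tap1 and Stat2. Unadjusted p-values of the members ran from 0.473 to 0.959. Log2 fold changes were positive for 3 members and negative for 3, against 54.2% positive over all genes tested, with a median of -0.18 for the members and 0.14 for all genes. For 0 of the 8 members did every knockout library lie above every control (10.4% of tested genes) or below it (2.3%).

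**Figure D1:**
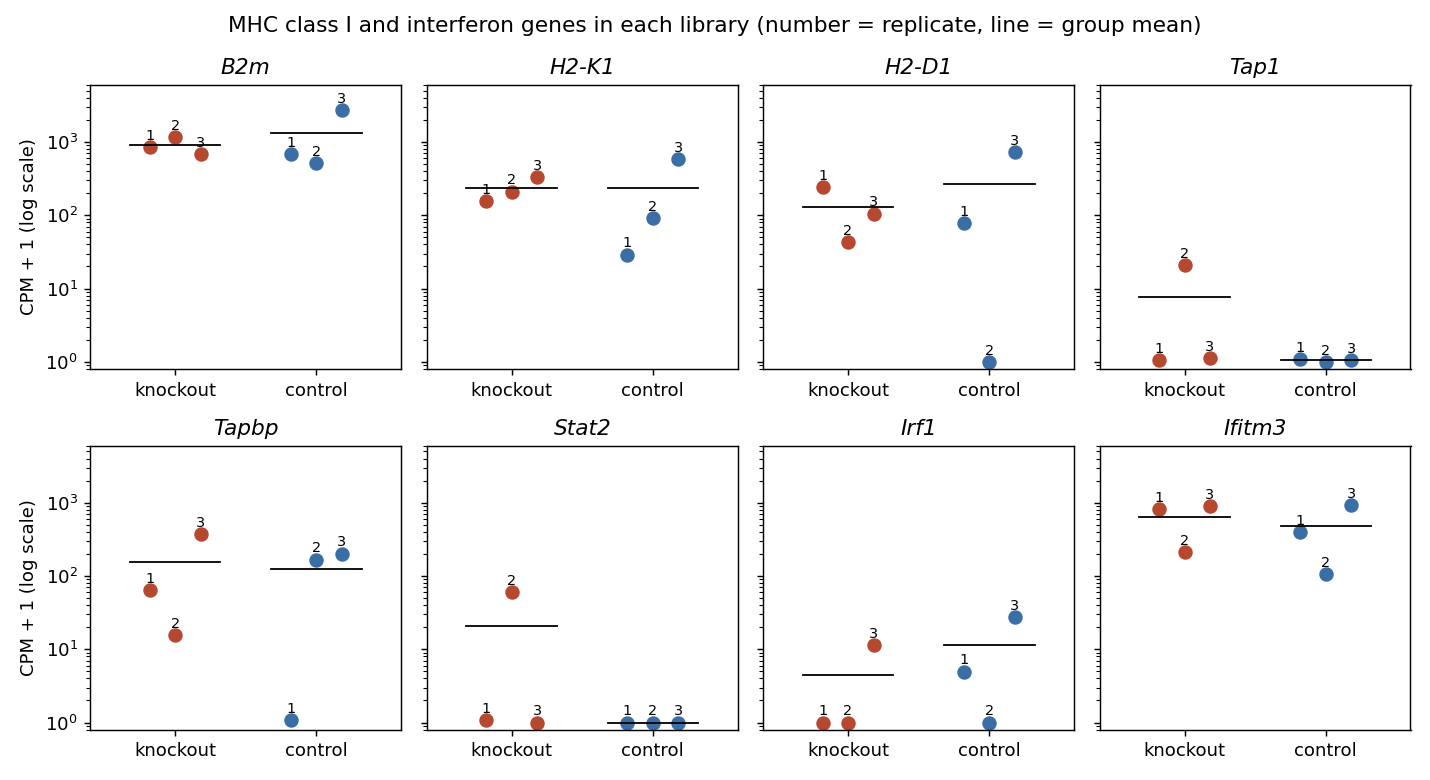
CPM + 1 on a log scale for each of the 8 genes in 3 knockout and 3 control libraries; numbers give the replicate and lines the arithmetic group mean of CPM. Control 3 is the highest library for B2m, H2-K1, H2-D1, Irf1 and Ifitm3, and Tap1 and Stat2 stand above 1 CPM in knockout 2 alone.

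B2m, the light chain of every classical class I molecule (mm10 chromosome 2, 122147687 to 122153082, plus strand), was among the most abundant transcripts in every library. Its level per length was 979.2, 1345 and 802.9 FPKM (counts scaled for gene length and library total) in knockouts 1, 2 and 3, against 802.9, 605.5 and 3185 FPKM in controls 1, 2 and 3. These levels stood above 95.5% to 99.6% of the genes detected in the same library. In counts, B2m had 11709, 24376 and 5579 in the knockouts, against 7998, 3889 and 44742 in the controls. Scaled for depth, control 3 was highest at 2733 CPM and control 2 lowest at 519.5 CPM, and the 3 knockouts lay between them, so the groups overlapped. B2m averaged 894.3 ± 237.2 CPM in the knockout, against 1314 ± 1232 CPM in the control (SD, n = 3 each), a log2 fold change of -0.44 ± 0.61 (SE; edgeR adjusted p = 0.9998).

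The direction for B2m rested on control 3, which held 79% of its control counts. Without that library the control mean was 604.2 CPM, below the knockout mean of 894.3 CPM, and the log2 fold change was 0.59. Without control 1 it was -0.75, and without control 2 it was -0.88. Neither value passed the threshold, and neither did the value without control 3 (adjusted p = 0.936). No annotated transcript of another gene shared a stretch of 50 bases with B2m. Patl2 lies across it on the opposite strand, with at most 1 count in any library.

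H2-K1, which encodes the classical class I heavy chain H-2K (chromosome 17, 33996012 to 34000619, minus strand), was measured in all 6 libraries at a lower level than B2m. It had 2182, 4425 and 2677 counts in knockouts 1, 2 and 3, against 326, 685 and 9549 counts in controls 1, 2 and 3. Scaled for depth, that was 156.6, 209.5 and 330.5 CPM in the knockouts, against 28.08, 91.5 and 583.2 CPM in the controls. Control 3 lay above all knockouts and the other controls below them. H2-K1 averaged 232.2 ± 89.19 CPM in the knockout, against 234.3 ± 303.9 CPM in the control (SD, n = 3 each), with a log2 fold change of 0.09 ± 1.68 (SE; edgeR adjusted p = 0.9998).

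Among the 8 genes H2-K1 was the one whose knockout libraries all exceeded controls 1 and 2. This pattern was looked at after its values were seen, and 18.2% of the 7347 genes tested without control 3 showed it. B2m missed it by a near tie, with knockout 3 and control 1 both at 688.9 CPM. In the fit without control 3 the log2 fold change of H2-K1 was 2.12 (edgeR adjusted p = 0.936). Group means were 232.2 CPM in the knockout, against 59.79 CPM in controls 1 and 2. Without control 1 the value was -0.48 and without control 2 it was -0.33, so which library was left out set its sign. It was also negative with other scalings, at -0.27 with DESeq2's size factors in edgeR.

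H2-D1, which encodes the classical heavy chain H-2D (chromosome 17, 35263094 to 35267497, plus strand), varied more. It had 3336, 884 and 845 counts in the knockouts, against 902, 0 and 11881 in the controls. A count of 0 in control 2 allows up to 0.401 CPM (3 counts), while the other libraries held 41.84 to 725.7 CPM. H2-D1 averaged 128.5 ± 101 CPM in the knockout, against 267.8 ± 398.4 CPM in the control (SD, n = 3 each). The log2 fold change was -0.88 ± 2.18 (edgeR adjusted p = 0.9998), and it turned to 1.63 without control 3, against -1.33 without control 1 and -1.48 without control 2. Control 3 held 92.9% of the H2-D1 control counts.

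The balance of the heavy chains differed between libraries of one genotype. Per 100 FPKM of B2m, H2-K1 was at 7.35, 7.16 and 18.9 FPKM in knockouts 1, 2 and 3, against 1.61, 6.94 and 8.41 FPKM in controls 1, 2 and 3. H2-D1 was at 14.1, 1.79 and 7.49 FPKM on the same scale in the knockouts, against 5.57, 0 and 13.1 FPKM in the controls. H2-D1 exceeded H2-K1 in knockout 1, control 1 and control 3, and H2-K1 exceeded H2-D1 in the other 3 libraries. Relative to B2m, control 3 lay within the range of the other libraries for both heavy chains, though its absolute levels were the highest. Class I genes resemble one another, and 9.63% of the 50-base stretches in H2-K1 transcripts and 12.8% of those in H2-D1 transcripts also occur in transcripts of other genes, each of the pair among the other's. No source used here gives the read length or the treatment of shared reads, so the split between class I genes is uncertain.

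**Figure D2:**
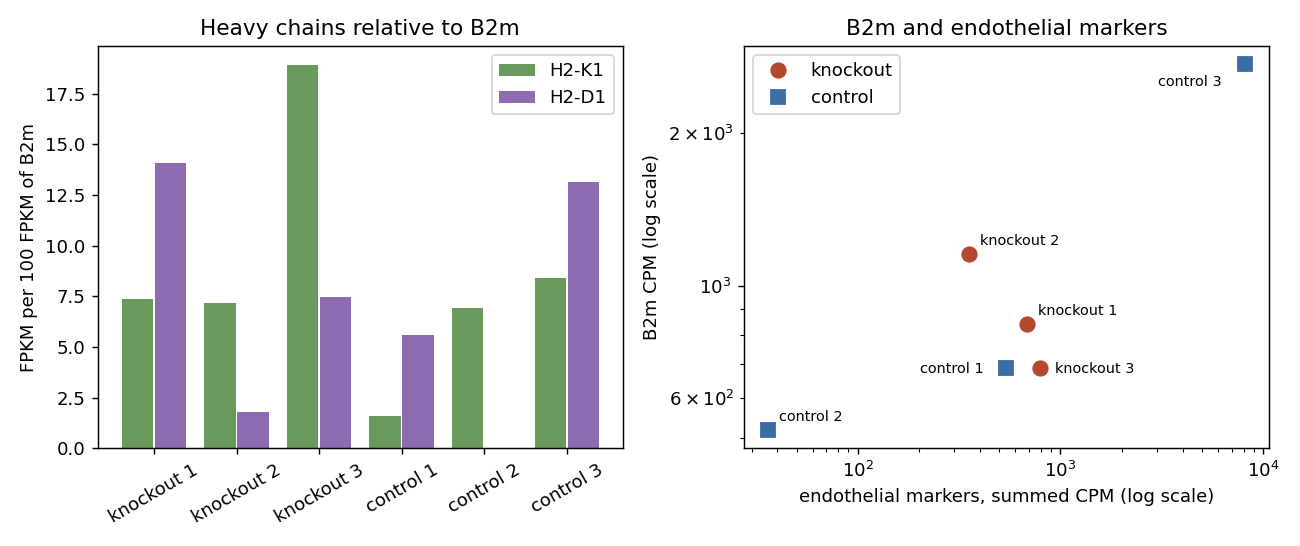
Left, FPKM of H2-K1 and H2-D1 per 100 FPKM of B2m in each library (bars start at 0; control 2 has no H2-D1 count). Right, B2m CPM against the summed CPM of 14 endothelial markers, both on log scales, for 3 knockout and 3 control libraries; control 3, at 8131 and 2733 CPM, is highest on both axes.

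The peptide loading genes were measured unevenly. Tap1, a subunit of the peptide transporter (chromosome 17, 34187556 to 34197225, plus strand), had 1, 425 and 1 counts in knockouts 1, 2 and 3, against 1, 0 and 1 in controls 1, 2 and 3. It reached 20.12 CPM in knockout 2 and stayed at or below 0.124 CPM in the other 5 libraries. The ratio of depth-scaled group totals was 175 (95% exact counting interval 48.3 to 1453), but 99.5% of the knockout counts came from knockout 2. Without that library the knockout mean was 0.0976 CPM, against 0.0491 CPM in the control. The low-count filter removed Tap1, and without the filter edgeR did not call it.

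Tapbp, which encodes tapasin (chromosome 17, 33919478 to 33929290, plus strand), had 888, 305 and 3060 counts in the knockouts, against 1, 1247 and 3301 in the controls. At 377.8 CPM knockout 3 was the highest library, and control 1 the lowest at 0.0861 CPM, so the groups overlapped. Means were 152 ± 197.1 CPM in the knockout, against 122.8 ± 107.7 CPM in the control (SD, n = 3 each), a log2 fold change of 0.42 ± 2.66 (edgeR adjusted p = 0.9998). The value was -0.17 without control 1, 0.61 without control 2 and 1.12 without control 3, and -1.29 without knockout 3. Tapbp overlaps Zbtb22 on the same strand over 3422 bases of annotation, and reads there may be counted to either gene.

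Of the transcription factors, Stat2 of the type I interferon pathway (chromosome 10, 128270498 to 128292853, plus strand) had 1, 1248 and 0 counts in knockouts 1, 2 and 3, against 0 in every control. Against a floor of 3 counts over the control group that is at least 342-fold higher in the knockout, yet 99.9% of it was knockout 2, at 59.07 CPM. The other 5 libraries held 1 count together. The low-count filter removed Stat2, and edgeR without the filter did not call it.

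Irf1, a transcription factor induced by interferon gamma (chromosome 11, 53770014 to 53778374, plus strand), was scarce in all libraries. Its counts were 0, 0 and 84 in the knockouts, against 46, 0 and 440 in the controls. Levels averaged 3.46 ± 5.99 CPM in the knockout, against 10.28 ± 14.51 CPM in the control (SD, n = 3 each), with zeros in both groups. The log2 fold change was -1.64 ± 3.03 (edgeR adjusted p = 0.9998). It was -2.06 without control 1, -2.23 without control 2 and 0.47 without control 3. Control 3 held 90.5% of the Irf1 control counts. Stat2 was detected in knockout 2 alone and Irf1 in 3 other libraries, too few to say anything of the pair.

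Ifitm3, an interferon-induced membrane protein that restricts viral entry (chromosome 7, 141009590 to 141010744, minus strand), was among the most abundant members per length beside B2m. It was at 1251, 325 and 1369 FPKM in knockouts 1, 2 and 3, against 615.3, 162.4 and 1417 FPKM in controls 1, 2 and 3. In counts this was 11297, 4449 and 7184 in the knockouts, against 4629, 788 and 15032 in the controls. Control 3 was highest and control 2 lowest, with the 3 knockouts and control 1 between them. Ifitm3 averaged 636.1 ± 370.5 CPM in the knockout, against 474 ± 411.6 CPM in the control (SD, n = 3 each), a log2 fold change of 0.51 ± 0.87 (edgeR adjusted p = 0.9998). It was 0.43 without control 1, -0.02 without control 2 and 1.27 without control 3. Of its 50-base stretches, 10% recur in transcripts of other genes, among them Ifitm2 and predicted genes.

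**Figure D3:**
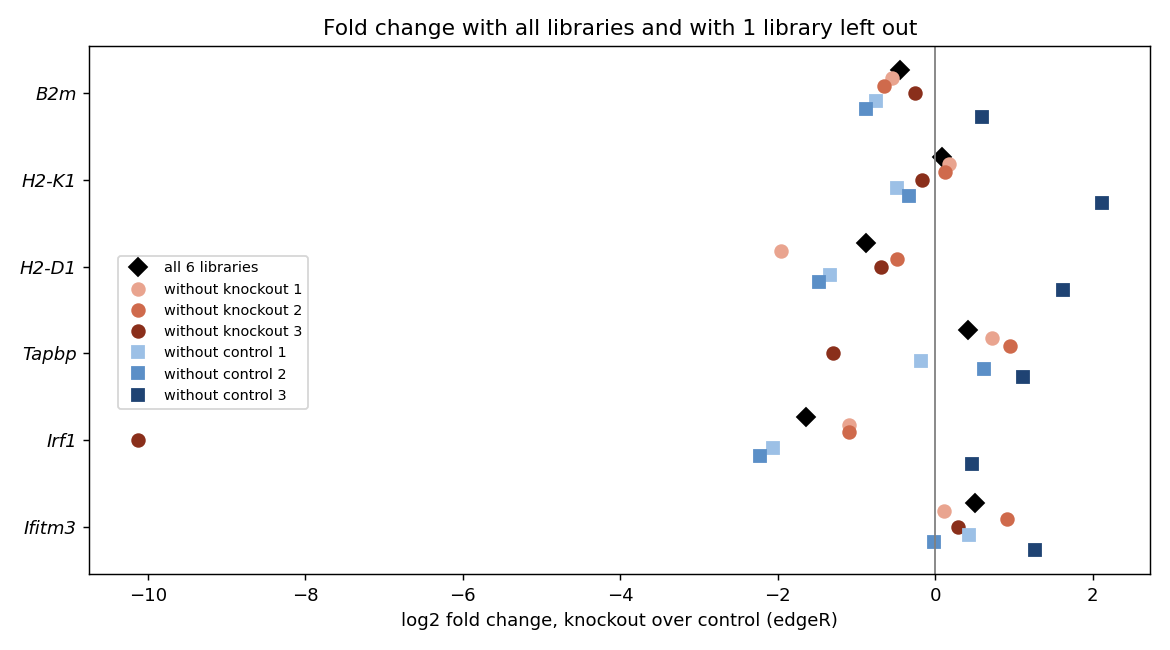
Log2 fold change of knockout over control (edgeR) for the 6 tested genes, with all 6 libraries (diamonds) and with each knockout (circles) or control (squares) left out. Without control 3 all 6 genes are positive, from 0.47 for Irf1 to 2.12 for H2-K1; none of the plotted values passed the threshold.

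Leaving out control 3 made all 6 tested members positive, with a median log2 fold change of 1.19, against 0.56 and 58.7% positive over all 7347 genes tested in that fit. None of the 6 was called by edgeR in that fit, where 0.0544% of all genes were called. With control 1 or control 2 left out, 1 member was positive each time. Summed over the 8 members, the libraries held 2111, 1709 and 2399 CPM in knockouts 1, 2 and 3, against 1198, 882.8 and 5188 CPM in controls 1, 2 and 3. The knockouts lay close together, between the low controls 1 and 2 and the high control 3. Control 3 was the highest library for 5 of the 8 members and for 19.6% of tested genes, knockout 2 for 2 members and 14.1% of genes, and knockout 3 for 1 member and 17.5%.

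Many members were at or near 0 in some libraries and well covered in others. Of the 8 genes, 5 had at least 100 counts in one library and at most 1 in another: H2-D1, Tap1, Tapbp, Stat2 and Irf1. Among the 10473 genes with 100 counts or more in some library this was so for 85.6%. At 10 counts or more, 5, 7 and 6 members were detected in knockouts 1, 2 and 3, against 5, 4 and 6 in controls 1, 2 and 3. B2m, H2-K1 and Ifitm3 reached 10 counts in all 6 libraries, as did 1196 of the 5727 tested genes. The cause of these low counts was not tested, and in bulk RNA, fewer cells of a type and less RNA per cell cannot be told apart.

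Endothelial markers were highest in control 3, as were the summed members, but not all other cell types followed. Lymphocyte and glial marker sums were also highest there. Pericyte and smooth muscle markers summed to 546.2 CPM in control 2, against 443.2 CPM in control 3. Amacrine markers were highest in knockout 2 (765.7 CPM, against 467.7 CPM in control 3). Horizontal cell markers were highest in knockout 1 (1093 against 642.3 CPM). Photoreceptor markers were highest in control 1, and bipolar markers had 0 CPM in control 3. Endothelial cells, which line vessels and express class I molecules, were represented by 14 markers, of which 12 were detected in control 3, 6 to 9 in the knockouts and 6 and 1 in controls 1 and 2. Their summed level was 684.5, 353.7 and 796.2 CPM in knockouts 1, 2 and 3, against 540, 36.07 and 8131 CPM in controls 1, 2 and 3. Cdh5, the endothelial cadherin, had 1363, 1485 and 2114 counts in the knockouts, against 1811, 8 and 23749 in the controls. Ly6c1, a surface protein found on some endothelial cells and leukocytes, had 0 counts in every knockout and 0, 1 and 29257 in the controls. The part of these cells in the B2m, H2-K1, H2-D1, Irf1 and Ifitm3 levels was not tested. In control 2, where the endothelial sum was lowest, B2m, Ifitm3, H2-D1 and the summed members were at their lowest, while H2-K1 and Tapbp were lowest in control 1. Elsewhere the order was mixed. Knockout 2 had a lower endothelial sum than control 1, and lower H2-D1 and Ifitm3. Its B2m was higher, at 1154 against 688.9 CPM, as were its summed members, at 1709 against 1198 CPM. Glial markers were mixed in control 3. The 9 markers of Muller glia and astrocytes in the table summed to 943.3, 873.9 and 2263 CPM in the knockouts, against 1350, 2188 and 6599 CPM in the controls. Vim, an intermediate filament that endothelial cells also express, had 96054 counts in control 3 and at most 14198 elsewhere, and Rlbp1, of Muller glia, had 2493 counts there and at most 1 elsewhere. Vim alone gave 5867 of the 6599 CPM in control 3. Glul was lowest there, at 38.97 CPM, and Slc1a3 and Aqp4 had 0 counts there and were highest in control 2. Clu was at 317.6 CPM in control 3, against 387.4 and 359.3 CPM in controls 1 and 2. Apoe was highest in knockout 3.

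Microglia, the resident macrophages, are another source of class I and interferon transcripts. Among their markers, Cx3cr1, P2ry12 and Tmem119 had at most 4 counts in any library, and others were high in 1 library. The 13 markers of the list in the table summed to 456.8, 263.7 and 0.988 CPM in the knockouts, against 1.98, 46.48 and 134.3 CPM in the controls. Cd68, a lysosomal protein of macrophages, had 1864, 5376 and 0 counts in the knockouts, against 0, 347 and 2196 in the controls. Fcer1g, an Fc receptor subunit, had 1672 counts in knockout 1 and 0 elsewhere. Ptprc and Tyrobp, of leukocytes, had 1639 and 1181 counts in knockout 1 and at most 1 elsewhere, and the complement gene C1qa had 188 counts in knockout 2 and at most 4 elsewhere. Knockout 2, the library with Tap1 and Stat2, held the most counts of Cd68 and C1qa. It had 0 counts of Fcer1g, Ptprc, Tyrobp, C1qb and C1qc, and the sum of the list was highest in knockout 1. The part of these cells in the members' levels was not tested.

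Other genes of class I presentation, from a list of 33 symbols with the 5 class I members included, gave no call. Of 27 in the table, 11 were tested, 5 with a positive and 6 with a negative log2 fold change (median -0.44). Over all genes tested, 54.2% were positive. Without control 3, 8 of the 11 were positive, against 58.7% of all genes tested in that fit. With all libraries edgeR called 0, with 0 at an unadjusted p under 0.05 and 0 by limma voom or DESeq2. The chaperone calnexin (Canx) had 7287, 7568 and 392 counts in the knockouts, against 7379, 1683 and 11510 in the controls. Calreticulin (Calr), its soluble partner, was highest in knockout 1, with 5531, 2306 and 1510 counts in the knockouts, against 1868, 590 and 2650 in the controls. Psme2, a subunit of the proteasome activator PA28, had 1940, 3766 and 1929 counts in the knockouts, against 0, 0 and 7577 in the controls, thus high in control 3 and at 0 in the other controls. Pdia3, a disulfide isomerase of the loading complex, was highest in control 2, with 154, 103 and 1 counts in the knockouts, against 11, 2881 and 591 in the controls. Psmb8, an immunoproteasome subunit encoded near Tap1, had 951 counts in knockout 2 and at most 1 elsewhere, and Psmb9, which overlaps the start of Tap1 on the opposite strand, had 122 counts in knockout 3 and 0 elsewhere. Both were named after their values were seen.

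Interferon receptors and signalling genes were no more uniform. Of 22 in the table, 11 were tested, with 4 positive and 7 negative (median -0.69). Without control 3, 7 of the 11 were positive, against 58.7% of all genes tested in that fit. With all libraries edgeR called 0, with 0 at an unadjusted p under 0.05 and 0 by limma voom or DESeq2. Jak1, a kinase of all interferon receptors, had 1670, 1978 and 975 counts in the knockouts, against 1, 368 and 8972 in the controls, again highest in control 3. The receptor subunit Ifnar1 had 1841, 522 and 671 counts in the knockouts, against 4, 7 and 2279 in the controls. Scaled for depth, Ifnar1 was at 0.345 and 0.935 CPM in controls 1 and 2. Jak1 was at 0.0861 and 49.16 CPM there, against 93.63 to 120.4 CPM in the knockouts. Pias1, a SUMO ligase that dampens interferon signalling, had 5102, 315 and 0 counts in the knockouts, against 1324, 0 and 441 in the controls. Both groups held zeros for Pias1. Of the interferon ligands, 3 were in the table, with at most 4 counts in any library.

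**Figure D4:**
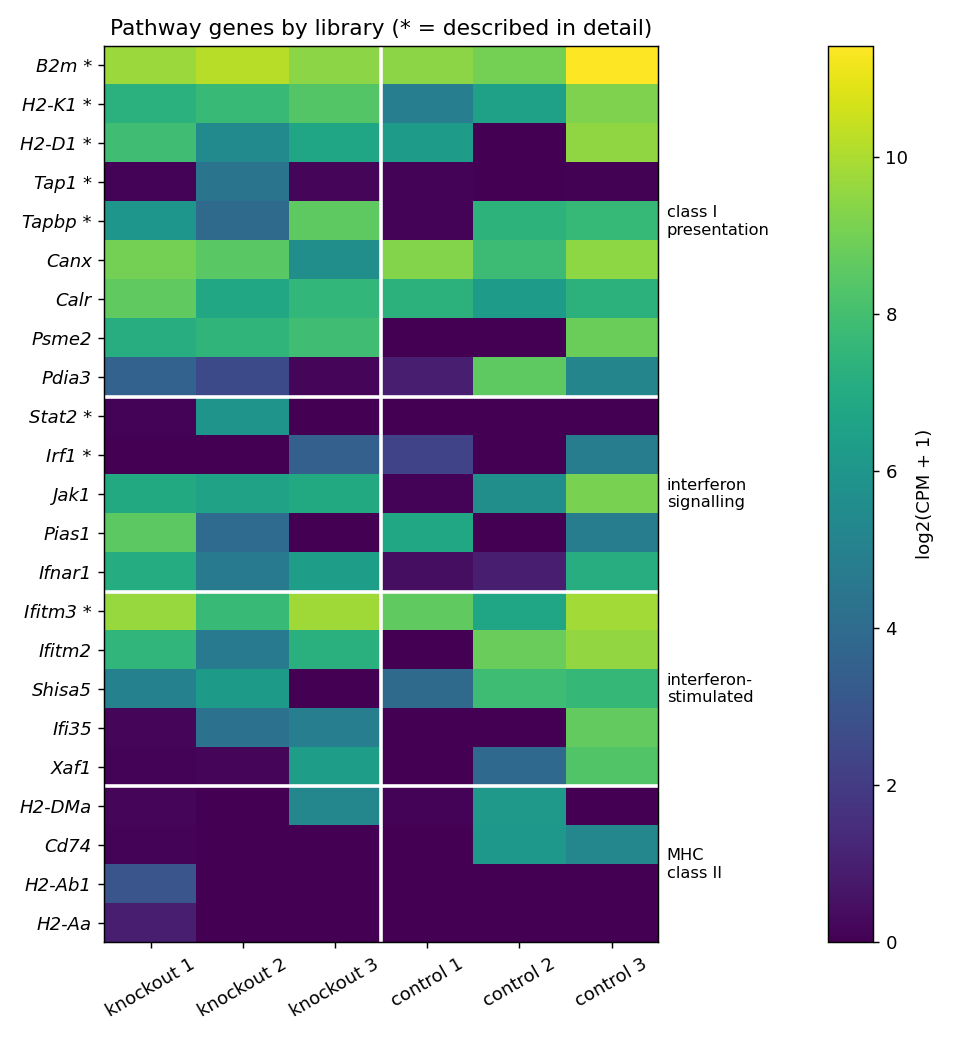
Colour gives log2(CPM + 1) for the members (starred) and the most abundant other genes of each list in 3 knockout libraries (left) and 3 control libraries (right). Control 3 is the highest library for 5 of the 8 members, and Tap1 and Stat2 are bright in knockout 2 alone.

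Interferon-stimulated genes had 46 of 57 symbols in the table and 10 tested, 2 positive and 8 negative (median -1.24), with 0 called by edgeR, 0 at an unadjusted p under 0.05 and 0 by limma voom. Without control 3, 5 of the 10 were positive, against 58.7% of all genes tested in that fit. Ifitm2, a paralog of Ifitm3, had 2573, 507 and 1209 counts in the knockouts, against 0, 3354 and 12293 in the controls. Ifi35 had 2, 378 and 231 counts in the knockouts, against 0, 0 and 6616 in the controls. Control 3 held the most counts of both. Xaf1, an inhibitor of a caspase inhibitor, had 1, 3 and 648 counts in the knockouts, against 0, 106 and 5162 in the controls. For Shisa5 these were 439, 1534 and 0 in the knockouts, against 166, 1726 and 3144 in the controls. Control 3 held the most counts of both, but scaled for depth Shisa5 was highest in control 2, at 230.6 CPM against 192 CPM in control 3. DESeq2, which called 15% of the genes with an adjusted p, called 3 genes of the list, each at 0 or near 0 in several libraries. The antiviral Rsad2 was lower, with 0, 0 and 4 counts in the knockouts, against 1, 1507 and 1235 in the controls. Irgm1, an interferon-inducible GTPase, was higher, with 357, 0 and 455 counts in the knockouts, while every control was at 0. Rtp4 was higher too, with 0, 144 and 478 counts in the knockouts, against 1, 0 and 0 in the controls. DESeq2's adjusted p was 0.0184 for Rsad2, 0.0215 for Irgm1 and 0.0339 for Rtp4, and edgeR's filter removed all 3 genes.

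MHC class II genes, which professional antigen-presenting cells use, were seen in few libraries, and none of the 7 in the table passed the filter. The list summed to 9.04, 0 and 38.5 CPM in the knockouts, against 0.172, 135.7 and 38.4 CPM in the controls. H2-Ab1 and H2-Aa had 100 and 13 counts in knockout 1 and 0 in the other libraries, and H2-DMa had 2, 0 and 308 counts in the knockouts against 1, 512 and 0 in the controls. Cd74, the invariant chain, had 1, 0 and 0 counts in the knockouts, against 0, 504 and 628 in the controls, and DESeq2 called it lower (adjusted p = 0.015).

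The genes closest to the 3 members detected in every library came from outside these lists. That says little, since the class I, signalling and interferon-stimulated lists held only 11, 11 and 10 tested genes, members included. Likeness was the root mean square difference of log2(CPM + 1), each gene centred on its mean over the 6 libraries, among 5542 other tested genes. Among the closest to B2m were Ldlrad4 (0.351) and Serinc3 (0.356), where the median gene stood at 2.73, and H2-K1 and Ifitm3 ranked 347 and 381. Ldlrad4 was near the floor, at 9.1 CPM in control 3 and at most 1.47 CPM elsewhere, so the 1 added to CPM shapes its likeness. The closest to H2-K1 were Mapk14 (0.478), Slc38a2 (0.519) and Usp4 (0.532), with B2m at rank 83 and Ifitm3 at 283. The closest to Ifitm3 were Wdr89 (0.329), Pabpc1 (0.370) and Rplp2 (0.426), with B2m at rank 142 and H2-K1 at 352. Serinc3 had 855.5, 663.3 and 683.4 CPM in the knockouts, against 414.6, 332.9 and 2593 CPM in the controls, with control 3 highest and control 2 lowest, as for B2m.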

How the data were processed

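Ganglion cell RNA was sequenced in bulk, and 3 knockout and 3 control libraries were analysed. The labels' protocols name the RNeasy Micro kit for RNA and the VAHTS Universal V6 kit for libraries. The submitters' processing notes list the tools HTSeq, HISAT2, fastp, DESeq2 and R 3.2.0 and the build mm10, without their roles. No source used here states the annotation or the strand setting.

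The deposited counts are raw whole numbers per gene. The deposited FPKM follow from the counts, each gene's length and the library total, to within 6.41e-07, so counts were the main measure. CPM are counts per 1000000 of the total. There were 0 rows without a gene name. Genotypes were compared with edgeR 4.0.16 in R 4.3.3 (filterByExpr, TMM, genotype as the only term and a robust quasi-likelihood test, Benjamini-Hochberg threshold 0.05), and the SE is the one implied by the F statistic. Alternatives were DESeq2 1.42.0 (adjusted p missing for 16513 genes), limma 3.58.1 (voom, and log2(FPKM + 1) or + 0.1), other scalings and filters, a replicate block and each library left out. The fits were tested on simulated data: edgeR recovered nearly all changes at a low spread and none at a spread near that of these data, so 0 calls here do not show that a gene did not change. Floors and intervals describe counting error alone, because PCR copies are not separate molecules.

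The members, gene lists and markers were chosen with earlier results of these data known. Genes named by rule are the members, the 4 most abundant other genes of each pathway list, the 2 most abundant ganglion cell, endothelial and microglial markers, Tgfbr1, and the 3 closest genes to each member with 10 counts in all libraries, without predicted genes. A few of the genes this would name are left unreported. Other genes (overlapping neighbours, Psmb8, Psmb9, Slc17a6, Thy1, Rbpms, Pou4f1, Vim, Rlbp1, Tyrobp, C1qa, Cx3cr1, P2ry12, Tmem119, Ptprc and the DESeq2 calls) were chosen after their values were seen. So were Apoe, Aqp4, C1qb, C1qc, Clu, Glul and Slc1a3. Shared stretches of 50 bases were counted over GENCODE M21 transcripts, and coordinates are from RefSeq GRCm38.p6.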

Additional observations from a re-analysis of the deposited data

How the results depend on the processing

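No member was called under any of the 17 alternatives run on it. The lowest adjusted p of the 6 tested members was 0.64, for B2m. Genes called over the whole table numbered 0 with all libraries, 885 with DESeq2, 88 with limma voom, and 0 to 7 with 1 library left out. The count of positive members, 3, was 5 of 8 without a low-count filter (Tap1 and Stat2 enter there), 6 of 8 on unfiltered log2(FPKM + 1), and 1 to 6 with 1 library left out. H2-K1 turned to -0.27 with RLE size factors, -0.044 with TMMwsp, -0.043 on library totals and -0.29 with DESeq2. H2-D1 turned to 2.15 with voom, 1.16 on log2(FPKM + 1) with or without the filter, and 2.25 on log2(FPKM + 0.1), where the median of all tested genes was 1.58 with voom, 0.47 on log2(FPKM + 1) with the filter and 0.93 on log2(FPKM + 0.1). Ifitm3 turned to -0.27 with voom. With 1 library left out, ranges were -0.88 to 0.59 for B2m, -0.48 to 2.12 for H2-K1, -1.96 to 1.63 for H2-D1, -1.29 to 1.12 for Tapbp, -10.13 to 0.47 for Irf1 (the low end without knockout 3, the one knockout with counts, so it is no bound) and -0.017 to 1.27 for Ifitm3. The cause of these changes was not tested. Same-numbered libraries did not deviate together (correlation of deviations -0.02, 0.03 and -0.01 across genes). At this spread between libraries, that cannot show whether the numbers pair them, and the labels state no pairing. With the replicate block, 0 genes were called and H2-D1 was at 1.89. The median of all tested genes was 0.14 with TMM and -0.13 with RLE size factors. The median of the members, -0.18, ran from -0.53 (RLE) to 0.94 (replicate block) over other settings, with 0.80 on log2(FPKM + 0.1), and from -0.62 to 1.19 with 1 library left out. The difference of summed CPM, knockout minus control, was -349.9 with all libraries, 69.5 without B2m, and -1120 (without control 2) to 1033 (without control 3) with 1 library left out. These turns of direction lay within the spread between libraries. A biological coefficient of variation of 2.04 and 3 libraries per genotype limit what could be called.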
